A study of Sus scrofa with 4 samples.

Results

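The vacuolar proton pump, or V-ATPase, was followed through the genes of its subunits in porcine oocytes matured with or without an inhibitor of SIRT6. Every gene in the deposited count table whose symbol starts with ATP6V was taken, which gave 6 of the 4381 genes listed. They were 1 gene of the membrane sector V0 (ATP6V0E1) and 5 genes of the peripheral sector V1 (ATP6V1A, ATP6V1C1, ATP6V1G1, ATP6V1G2 and ATP6V1H). The porcine RefSeq annotation of Sscrofa11.1 holds 21 protein-coding symbols that start with ATP6V, and the other 15 were not analysed here.

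Oocytes at the M II stage, the point at which a mature oocyte waits for fertilization, were compared in 2 control libraries and 2 libraries of SIRT6-inhibited oocytes. Cumulus-oocyte complexes from abattoir ovaries were matured in vitro for 42 to 44 h, the inhibited group with SIRT6-IN-1, an inhibitor that enters cells, at 100 μM in the medium throughout. The compound was given from a DMSO stock while the cumulus cells were still attached, and the text read here does not state whether control medium held DMSO. Both groups were pools of oocytes, and the methods give a number of oocytes for each group without saying how they were divided between libraries. Whether the libraries of a group came from separate cultures is not given, so the p-values measure only the spread between these libraries. The listed genes summed to 4646129 and 3405960 counts in control libraries 1 and 2, and to 3239200 and 4972602 counts in SIRT6-inhibited libraries 1 and 2. The table holds part of the gene catalogue, so these sums are not the full sequencing depth. Pairs of values are given for library 1 and then library 2 of each group.

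The V-ATPase uses the energy of ATP to move protons across membranes. The V1 sector, on the cytoplasmic side, binds and hydrolyses ATP, and the V0 sector in the membrane carries the protons into the lumen of endosomes, lysosomes and secretory vesicles. Cells can switch the pump off by releasing V1 from V0, and the low pH it maintains is needed by lysosomal enzymes and for the release of cargo from recycling receptors. A fully grown oocyte hardly transcribes, so the messages present at M II are largely those stored during growth and not yet degraded.

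The labelled cell type was checked first against markers of oocytes and of the somatic cells around them. All 13 oocyte markers in the table had counts, and together they held between 77680 and 79942 normalized CPM in each library (counts of the listed genes scaled by TMM to a common library total). KPNA7, an importin of oocytes, had the highest mean of the list, between 25674 and 28963 normalized CPM. Of 17 cumulus and granulosa cell markers 12 had at least 1 count, and their sum was 172 and 198 normalized CPM without the inhibitor and 80.2 and 202 normalized CPM with it. Of the 7 tested, 6 had a negative log2 fold change, with a median of -0.82, and the groups did not overlap for 4, of which 3 were lower and 1 higher. Over all tested genes 52.8% had a negative log2 fold change, and the groups did not overlap for 40.1%, 22.2% lower and 17.9% higher. PTGS2, at 0 in both SIRT6-inhibited libraries, was among the 6 negative markers and the 3 lower ones. It passed the filter on low counts only through the control libraries, so nothing is read from the counts over these 7 markers. The gonadotropin receptors FSHR and LHCGR, AMH and AMHR2 of granulosa cells, and TNFAIP6 of the expanding cumulus matrix were at 0 in the 4 libraries. VCAN, which encodes the matrix proteoglycan versican, had the highest mean of that list, with 82.7 and 137 normalized CPM in control oocytes and 38.8 and 142 after inhibition. Without VCAN the other 16 markers summed to 89.0 and 61.4 normalized CPM in control oocytes and to 41.3 and 59.8 after inhibition. Both SIRT6-inhibited libraries were then lower, but library 2 lay close to control library 2. These sums still held PTGS2, at 4.75 and 3.38 normalized CPM in control oocytes and 0 after inhibition. Without PTGS2 as well, SIRT6-inhibited library 2 is not below control library 2. GDF9, an oocyte growth factor, and ZP2, a zona pellucida protein, were the 2 of 13 tested oocyte markers with an unadjusted p-value under 0.05 (edgeR), both lower, against 9.05% of all tested genes, 5.99% lower. GDF9 held 1323 and 2988 normalized CPM in control oocytes and 978 and 393 after inhibition, with a log2 fold change of -1.65 (edgeR adjusted p = 0.469). ZP2 held 3710 and 4330 against 3419 and 2785 (log2 fold change -0.37, edgeR adjusted p = 0.510), so neither passed adjustment. Of 5 blood cell markers PECAM1 held between 14.9 and 31.2 normalized CPM, CD68 had 4 counts in control library 2 alone, and CD14, HBB and VWF were at 0. SIRT6-inhibited library 1 thus had the lowest sum of cumulus markers, and it is also the library in which ATP6V1G1 and ATP6V1H were lowest. The part of that library and of the cumulus markers in the V-ATPase results was not tested.

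The V0 gene ATP6V0E1 lay above both controls in each SIRT6-inhibited library, 1.58-fold higher on average. The 4 V1 genes with counts all had a negative log2 fold change over the 4 libraries, though ATP6V1A and ATP6V1H turned positive with 1 library left out, and ATP6V1C1 had no count at all in SIRT6-inhibited oocytes. None of the 5 V-ATPase genes tested passed adjustment over all genes in edgeR's quasi-likelihood test. The same held for every one of the 2387 genes tested. ATP6V1C1 alone had an unadjusted p-value under 0.05, and it was the 1 V-ATPase gene that DESeq2's Wald test called after adjustment. It passed the filter on low counts through the control group alone, where it is high, so its p-values are no support for a difference of the V-ATPase. In bulk libraries scaled to a common total, a smaller share of cells that hold a transcript and less of it per cell cannot be told apart.

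The background over all tested genes sets the reading of these counts. In edgeR's quasi-likelihood test 216 of 2387 genes (9.05%) had an unadjusted p-value under 0.05, 143 lower (5.99%) and 73 higher (3.06%) in SIRT6-inhibited oocytes. At an adjusted p-value under 0.05 there were 0 genes (0%), while DESeq2's Wald test called 37. For 40.1% of tested genes the groups were fully apart, with each library of one beyond both of the other, 22.2% lower and 17.9% higher. Of the 5 V-ATPase genes tested, 1 had an unadjusted p-value under 0.05 and 3 did not overlap between groups, and 4 had a negative log2 fold change where 52.8% of all tested genes did. Counts over 5 genes are too few to read a departure from these shares. The median log2 fold change of the 5 genes was -0.44, against -0.04 over all tested genes. Without control library 1 it was -0.83, without SIRT6-inhibited library 1 it was -0.18, and without SIRT6-inhibited library 2 it was -1.12. The counts, too, moved with single libraries. Of all genes, 111 had an unadjusted p-value under 0.05 without control library 2, and those lower numbered 89 and 58 without control library 1 or 2 and 243 without SIRT6-inhibited library 1. Adjusted calls in edgeR's test were 0 and 1 without control library 1 or 2, and 77 and 25 without SIRT6-inhibited library 1 or 2. Of the V-ATPase genes, 0 had an unadjusted p-value under 0.05 without control library 2 and 4 without SIRT6-inhibited library 2, and ATP6V1C1 passed adjustment without SIRT6-inhibited library 1.

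**Figure D1:**
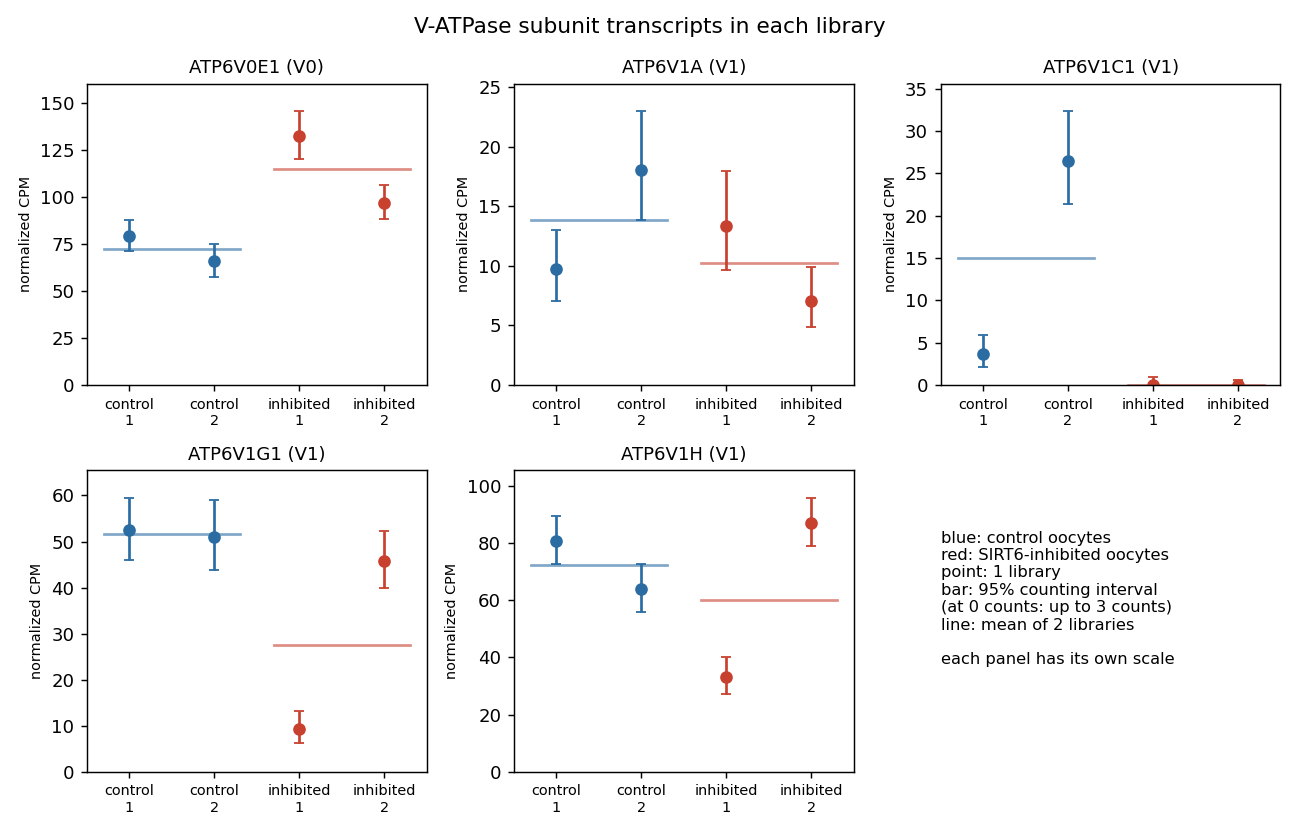
Normalized CPM (vertical axis, separate scale and starting at 0 in each panel) of the 5 V-ATPase genes with counts in each of the 4 libraries, with 95% Poisson counting intervals as bars, up to 3 counts where the count is 0, and the mean of 2 libraries as a line. ATP6V0E1 lies higher in both SIRT6-inhibited libraries, ATP6V1C1 is at 0 in both, and ATP6V1G1 and ATP6V1H are lowest in SIRT6-inhibited library 1. In SIRT6-inhibited library 2 ATP6V1G1 lies a little below both controls and ATP6V1H above both.

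ATP6V0E1 encodes the small hydrophobic e subunit, which sits in the membrane sector. RefSeq places it at chr16:51225719-51260712 of Sscrofa11.1. Its counts were 367 and 234 without the inhibitor and 427 and 466 with it. After scaling these were 79.2 and 65.9 normalized CPM in control oocytes and 133 and 97.1 normalized CPM in SIRT6-inhibited oocytes. Each SIRT6-inhibited library lay above each control library, and the counting intervals of the groups met at no point, with the closest being 71.3 to 87.8 normalized CPM in control library 1 and 88.4 to 106 in SIRT6-inhibited library 2. The means were 72.6 ± 9.45 and 115 ± 25.2 normalized CPM (SD, n = 2 each). The log2 fold change was 0.66 with a standard error of 0.31, a 95% interval of -0.07 to 1.40 and an adjusted p-value of 0.573 (edgeR's quasi-likelihood test). The difference was thus within what the spread between libraries of a group allows. Left out in turn, the libraries gave values from 0.41 to 0.87, all positive, and without SIRT6-inhibited library 2 the unadjusted p-value fell under 0.05 (adjusted p = 0.418, and between 0.418 and 0.976 over the 11 alternatives).

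ATP6V1C1 encodes subunit C, which sits where the V1 sector meets V0 and is known to leave the complex when the sectors come apart. It lies at chr4:34033943-34084990. Its counts were 17 and 94 without the inhibitor, and 0 in both libraries with it. In normalized CPM the control libraries held 3.67 and 26.5, with counting intervals of 2.14 to 5.88 and 21.4 to 32.4, so that the control libraries differed from each other by more than counting error. Set against 3 counts in each SIRT6-inhibited library, a mean of 0.778 normalized CPM, SIRT6-inhibited oocytes were at least 19.4-fold lower than the control mean. Against the lower control library alone the bound was at least 4.72-fold lower. The unadjusted p-value was 0.0134 and the adjusted one 0.469 in edgeR's quasi-likelihood test. Without control library 2, which held 94 of the 111 counts of this gene, the unadjusted p-value was 0.415 (edgeR). The adjusted p-value was 0.0236 in DESeq2's Wald test and 0.0486 in edgeR's test without SIRT6-inhibited library 1, and ranged from 0.0236 to 0.976 over 10 alternatives.

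A gene at 0 in both SIRT6-inhibited libraries was not rare. There were 56 such genes among the 2387 tested (2.35%), of which 51 had at least 10 counts in both control libraries, as ATP6V1C1 did, while 5 genes (0.209%) were at 0 in both control libraries. The filter on low counts keeps a gene at 0 in 1 group where both libraries of the other reach about 10 counts. The number 51 is thus largely set by that filter. Zeros also split libraries of a single group. At 0 in 1 control library and at least 10 counts in the other were 147 genes (6.16%), and 285 genes (11.9%) did so in the SIRT6-inhibited group. Detected genes numbered 2411 and 2689 in the controls and 2277 and 2320 after inhibition, so that the library in which ATP6V1C1 was highest was also the one with the most genes detected. The part of gene detection in the ATP6V1C1 result was not tested.

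**Figure D2:**
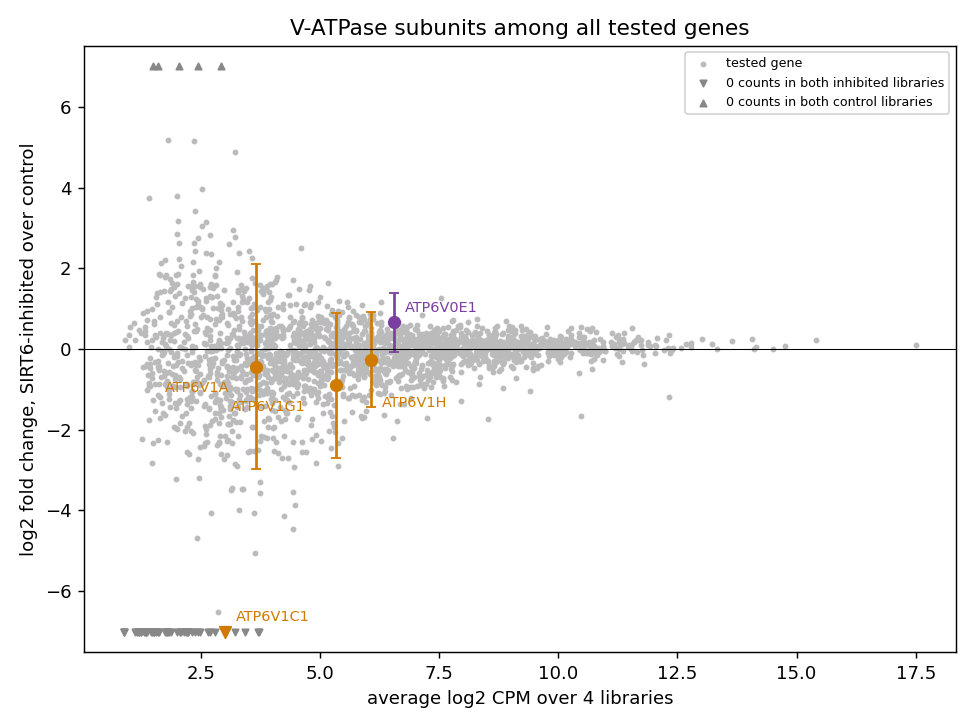
Log2 fold change of SIRT6-inhibited over control oocytes (vertical axis) against average log2 CPM (horizontal axis) for the 2387 tested genes in grey, with V0 in purple and V1 in orange and 95% intervals as bars. Triangles at the edges mark genes with 0 counts in both libraries of a group, for which no fold change is drawn, and ATP6V1C1 is 1 of 56 at the lower edge; the intervals of the other 4 V-ATPase genes include 0.

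ATP6V1G1 encodes the common form of subunit G, part of the peripheral stalks that hold the catalytic head against the turning rotor. It lies at chr1:255151909-255159299. Control oocytes gave 243 and 181 counts of this gene, and inhibited ones 30 and 220. In normalized CPM the control libraries lay close together, at 52.5 and 51.0, and the SIRT6-inhibited libraries lay far apart, at 9.32 and 45.8. Both SIRT6-inhibited libraries were below both control libraries, but the counting interval of SIRT6-inhibited library 2 reached up to 52.3 normalized CPM, above control library 2. The means were 51.7 ± 1.07 and 27.6 ± 25.8 normalized CPM (SD, n = 2 each). The log2 fold change was -0.90 with a standard error of 0.75, a 95% interval of -2.70 to 0.90 and an adjusted p-value of 0.905 (edgeR's quasi-likelihood test). The value rested on SIRT6-inhibited library 1. It was -0.18 without that library and -2.47 without SIRT6-inhibited library 2, where the unadjusted p-value was 0.00196 and the adjusted one 0.0930 (edgeR, with a range of 0.0930 to 0.997 over the 11 alternatives).

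ATP6V1H encodes subunit H, a regulatory subunit that is known to keep free V1 from hydrolysing ATP. It lies on the same chromosome as ATP6V1C1, at chr4:77211493-77269757. Its counts were 374 and 227 in the controls, and 107 and 418 after inhibition. In normalized CPM these were 80.8 and 63.9 against 33.2 and 87.1. The SIRT6-inhibited libraries were the lowest and the highest of the 4, so the groups overlapped. The log2 fold change was -0.26 with a standard error of 0.49, a 95% interval of -1.44 to 0.92 and an adjusted p-value of 0.980 (edgeR's quasi-likelihood test). It turned to 0.26 without SIRT6-inhibited library 1 and was -1.12 without SIRT6-inhibited library 2.

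ATP6V1A encodes the catalytic subunit A, which hydrolyses ATP, and lies at chr13:146128664-146165269. It had few counts, 45 and 64 in the controls and 43 and 34 after inhibition. In normalized CPM these were 9.72 and 18.0 against 13.4 and 7.08. SIRT6-inhibited library 1 lay between the control libraries, so the groups overlapped, and here that library was not the lower of its group. The log2 fold change was -0.44 with a standard error of 1.06, a 95% interval of -2.98 to 2.10 and an adjusted p-value of 0.988 (edgeR's quasi-likelihood test). It turned to 0.068 without control library 2.

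ATP6V1G2 encodes a form of subunit G known mainly from neurons, and lies at chr7:23670970-23673860. It had 0 counts in the 4 libraries. A count of 0 allows up to 3 counts, which is between 0.625 and 0.932 normalized CPM, and the gene was not tested. Of the 2 subunit G genes, counts were thus found for ATP6V1G1. How reads shared between related subunit genes were assigned is not given in the sources used here. Levels of different subunits were not ranked against each other because transcript lengths were not used here.

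The sectors were also summed in each library, as a description without a test. The 5 V1 rows held 147 and 159 normalized CPM without the inhibitor and 55.9 and 140 normalized CPM with it. Both SIRT6-inhibited libraries were lower than both control libraries, SIRT6-inhibited library 1 at 0.366 of the control mean and library 2 at 0.915. ATP6V1C1 gave 3.67 and 26.5 normalized CPM of the control sums and 0 of the SIRT6-inhibited sums. Without this gene SIRT6-inhibited library 2 is not below control library 2, so nothing is read from the order of those sums. Without ATP6V1H, which held the most V1 counts, the sums were 65.9 and 95.4 normalized CPM in control oocytes and 22.7 and 52.9 normalized CPM in SIRT6-inhibited oocytes. The V0 sector is represented by ATP6V0E1 alone, at 1.83 of its control mean in SIRT6-inhibited library 1 and 1.34 in library 2. A ratio of counts within a library does not depend on its scaling. The ratio of ATP6V0E1 counts to the sum of V1 counts, looked at after the values were seen, was 0.541 and 0.413 without the inhibitor and 2.37 and 0.693 with it. It was higher in both SIRT6-inhibited libraries, where the smallest two-sided p-value of an exact permutation test with 2 libraries in each group is 0.333.

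The spread between the 2 libraries of a group differed among the subunits. On the log2(normalized CPM + 1) scale the median difference between the control libraries, regardless of sign, was 0.39 over all tested genes, and it was 0.44 between the SIRT6-inhibited libraries. ATP6V1C1 differed by 2.56 between the control libraries, more than 94.4% of tested genes. ATP6V1G1 differed by 2.18 between the SIRT6-inhibited libraries, more than 85.9% of tested genes, and by 0.04 between the control libraries. ATP6V1H differed by 1.36 between the SIRT6-inhibited libraries, more than 77.2% of tested genes. ATP6V0E1 differed by 0.26 between the control libraries and by 0.45 between the SIRT6-inhibited libraries, close to the medians.

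**Figure D3:**
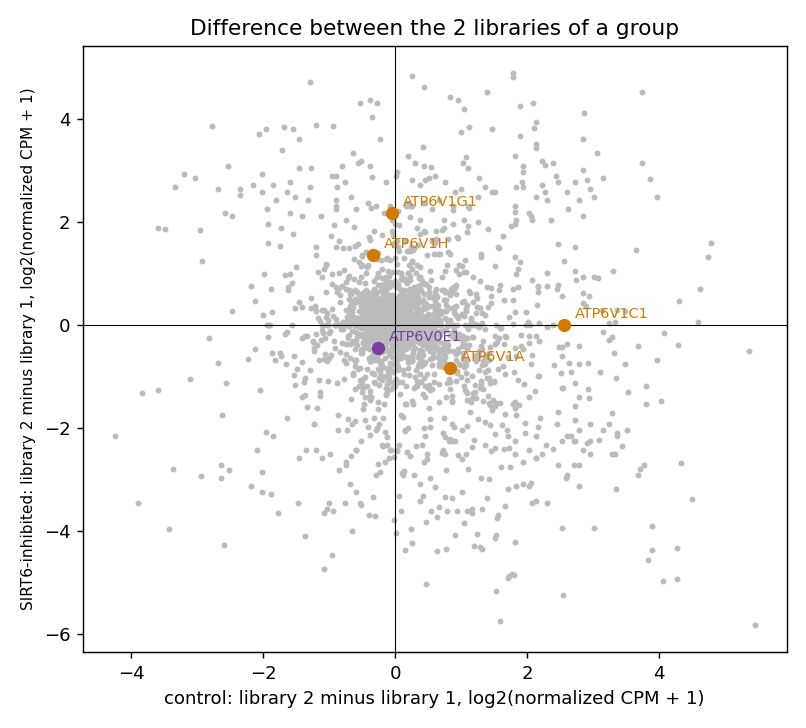
Difference between library 2 and library 1 on the log2(normalized CPM + 1) scale, in control oocytes (horizontal axis) and in SIRT6-inhibited oocytes (vertical axis), for every tested gene in grey, V0 in purple and V1 in orange. ATP6V1C1 lies far out at 2.56 along the control axis, ATP6V1G1 and ATP6V1H at 2.18 and 1.36 along the SIRT6-inhibited axis, and ATP6V0E1 near the centre.

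The genes whose profiles over the 4 libraries lay nearest to each subunit were named by the root mean square difference of log2(normalized CPM + 1) values centred on each gene's own mean. Nearest to ATP6V1C1 was DIRAS3, with 19 and 68 counts in control oocytes and 0 in both SIRT6-inhibited libraries, at a difference of 0.218, followed by ADPRH at 0.366. Nearest to ATP6V1G1 were CPT1B at 0.0463, RAB32 at 0.113 and SFXN1 at 0.129. RAB32, a small GTPase of lysosome-related organelles, had 40.4 and 41.9 normalized CPM in control oocytes and 7.15 and 30.4 after inhibition. Nearest to ATP6V1H were GSKIP at 0.0683, SIRT4 at 0.0880 and RRAGD at 0.112. For ATP6V0E1 they were CMYA5 at 0.0394, BMP2 at 0.0575 and MAGED1 at 0.0651, and for ATP6V1A they included SPAG5 at 0.0826 and SLC35C2 at 0.101. With 4 libraries many genes share any given profile, and these names are a description of it.

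The genes around the pump were taken from lists of its partners in acidic organelles and from the related mitochondrial F-type ATP synthase. No gene of the list of V-ATPase accessory subunits and assembly factors was analysed here. Over the other lists 43 genes were listed, 34 were tested and 3 fell under an unadjusted p-value of 0.05 (quasi-likelihood test of edgeR; 6 did without SIRT6-inhibited library 1), 1 higher and 2 lower, against the 9.05% of all tested genes. The 2 lower genes, CLCN5 and HEXA, passed the filter on low counts only through the control libraries, so nothing is read from this count. None passed adjustment in edgeR's test. The groups did not overlap for 15 of the 34 genes, against 40.1% of all tested genes. The F-type genes were 10 of the 34 tested and 4 of these 15, and none of the 3.

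The V-ATPase passes the state of the lysosome to mTORC1 through the Ragulator complex and the Rag GTPases. RRAGD, a Rag GTPase, had 98 and 71 counts in the controls and 28 and 107 after inhibition. In normalized CPM these were 21.2 and 20.0 against 8.70 and 22.3, again with SIRT6-inhibited library 1 lowest, and the groups overlapped (log2 fold change -0.41, standard error 0.86, edgeR adjusted p = 0.984). LAMTOR2, a Ragulator subunit, had 6 counts in control library 2 and 0 in the others and was not tested. MITF, a relative of the lysosomal transcription factor TFEB, was at 0 in the 4 libraries.

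CLCN5 encodes a chloride-proton exchanger that supplies counter-ions while the V-ATPase acidifies endosomes. Like ATP6V1C1 it was at 0 in both SIRT6-inhibited libraries, with 67 and 15 counts in the controls. Set against 3 counts in each SIRT6-inhibited library it was at least 5.42-fold lower than the lower control library, with an unadjusted p-value of 0.0226 and an adjusted one of 0.487 (edgeR's quasi-likelihood test). The control library with more counts was library 1 for CLCN5 and library 2 for ATP6V1C1. The unadjusted p-value of CLCN5 was 0.443 without control library 1 and 0.0585 without control library 2 (edgeR). HEXA, a subunit of the lysosomal hexosaminidases, was also at 0 in both SIRT6-inhibited libraries, with 36 and 15 counts in the controls. By the same floor it was at least 5.42-fold lower than the lower control library, as for CLCN5 (edgeR unadjusted p = 0.0413, adjusted p = 0.534), and its unadjusted p-value was above 0.05 with any 1 library left out.

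Of 29 lysosomal hydrolase and membrane protein genes listed, 22 were tested, 12 with a positive and 10 with a negative log2 fold change and a median of 0.06. That median lay close to 0 and its sign depended on the scaling, with -0.0024 for library totals only, and it was 0.18 without control library 1. IGF2R, the receptor that delivers mannose 6-phosphate tagged enzymes and lets them go at low pH, had the highest mean normalized CPM of the list. It held 1040 and 966 normalized CPM in the controls and 1337 and 1552 after inhibition. Both SIRT6-inhibited libraries were higher, with means of 1003 ± 52.3 and 1444 ± 152 (SD, n = 2 each) and an estimated log2 fold change of 0.53 ± 0.13 (SE, adjusted p = 0.460 in edgeR). Its adjusted p-value was 0.0146 in DESeq2's Wald test and 0.0315 in edgeR's test without a filter on low counts, and up to 0.950 over the other alternatives. Its unadjusted p-value was 0.0548 without SIRT6-inhibited library 2 (edgeR).

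The mitochondrial F-type ATP synthase, a rotary enzyme related to the V-ATPase that runs in the direction of making ATP, was set beside it. All 10 genes listed were tested, 8 with a negative and 2 with a positive log2 fold change, 0 reached an unadjusted p-value under 0.05 by edgeR, and the median was -0.48. The groups did not overlap for 4 of the 10, all lower in SIRT6-inhibited oocytes, where 40.1% of all tested genes did not overlap and 22.2% did so in the lower direction. A negative log2 fold change was found for 52.8% of all tested genes, and 9.05% had an unadjusted p-value under 0.05. The 5 V-ATPase genes had a median of -0.44 and the 4 tested V1 genes of -0.67. The V1 median is the same with ATP6V1C1 at its bound and becomes -1.80 without SIRT6-inhibited library 2. A filter of 10 counts for all libraries takes out ATP6V1C1, and the V1 median over the 3 genes left was -0.44. ATP5MC3, a c-ring subunit with the highest mean normalized CPM of the list, had 158 and 193 normalized CPM in the controls and 193 and 185 after inhibition (log2 fold change 0.11, standard error 0.22, edgeR adjusted p = 0.983), so that its groups overlapped. ATP5L, subunit g of the membrane part, was named after its values were seen, because its mean was close to that of ATP5MC3 and its direction differed. It had 234 and 195 normalized CPM in the controls and 109 and 188 after inhibition (log2 fold change -0.53, standard error 0.30, edgeR adjusted p = 0.698). For the F-type genes the median was -0.10 without control library 2 and -0.23 over those genes that kept 10 or more counts in each library.

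**Figure D4:**
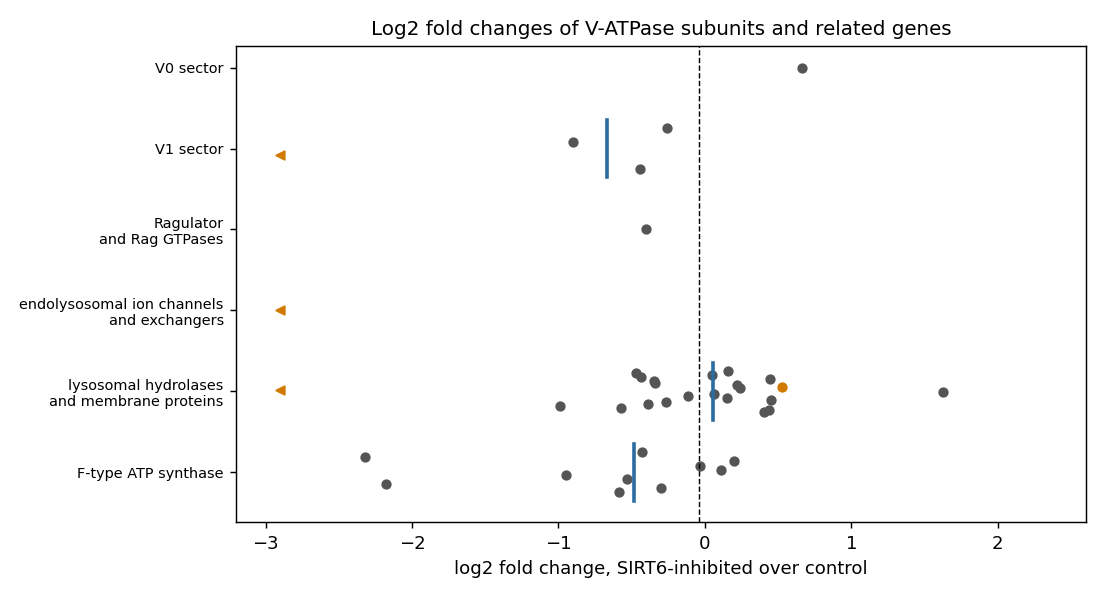
Log2 fold change of SIRT6-inhibited over control oocytes (horizontal axis) for each tested gene of 6 lists (vertical axis), with orange marking genes that edgeR gave an unadjusted p-value under 0.05. Left-pointing triangles mark genes with 0 counts in both SIRT6-inhibited libraries, blue bars the median of lists with at least 4 tested genes, and the dashed line the median of -0.04 over all tested genes. The V1 and F-type medians, -0.67 (-1.80 without SIRT6-inhibited library 2) and -0.48 (-0.10 without control library 2), lie left of that line. The lysosomal median, 0.06 (-0.0024 with library totals only), lies right of it. A filter of 10 counts for all libraries leaves 3 V1 genes, without ATP6V1C1, with a median of -0.44.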

How the data were processed

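RNA of M II oocytes was sequenced from 2 control and 2 SIRT6-inhibited libraries. Counts by gene symbol were deposited as 1 table, and they were assumed to be raw counts, not normalized. The sample labels name Smart-seq2 amplification followed by a NEBNext Ultra library, and the methods text names the library kit without that amplification. Amplified reads are not independent molecules, so intervals and the 3-count floor cover counting error only. The submitters' processing notes list TopHat2 2.0.13, Cufflinks 2.2.1, Cuffnorm and Cuffdiff and the builds susScr11 and mm10, without saying which step made the counts. The counter, annotation and strand setting are not given in the sources used here. Coordinates come from RefSeq for Sscrofa11.1, and all 6 V-ATPase symbols matched.

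Counts were analysed with R 4.3.3, edgeR 4.0.16 and DESeq2 1.42.0. Genes were kept by filterByExpr (minimum count 10, minimum total 15), scaled by TMM, and tested with edgeR's quasi-likelihood test, two-sided, with Benjamini-Hochberg adjustment over 2387 genes. The standard error is the log2 fold change divided by the square root of F, and 95% intervals use its degrees of freedom. The fit was also run on simulated counts, and nothing is read from that run here. The members and gene lists were chosen with earlier results of these data known, and no set test was made. Named were all V-ATPase genes, the tested gene with the highest mean normalized CPM of each list, tested list members whose unadjusted p-value was under 0.05, and the 3 genes nearest to each tested subunit; LAMTOR2, MITF and ATP5L were added after their values were seen. Of the nearest genes, 2 are not reported here. Alternatives were RLE and no scaling, no filter, a filter of 10 counts for all libraries, replicate number as block, DESeq2, and leaving out each library.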

Additional observations from a re-analysis of the deposited data

How the results depend on the processing

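The log2 fold changes of the V-ATPase genes kept their direction under RLE scaling, library totals only, no filter, both blocks and DESeq2, as they did with at least 10 counts in every library for the 4 genes still tested there (ATP6V1C1 was not). Leaving out 1 library reversed ATP6V1A (from -0.97 to 0.068, the last without control library 2) and ATP6V1H (from -1.12 to 0.26, the last without SIRT6-inhibited library 1), and the cause was not tested. Where a group is left with 1 library, that library is assumed to vary like the others. V-ATPase genes with an unadjusted p-value under 0.05 numbered 1, and 0 with at least 10 counts in every library, since ATP6V1C1 was then not tested, and between 0 and 4 with each library left out. With an adjusted p-value under 0.05 there were 0, and 1 with DESeq2 and between 0 and 1 with a library left out. In the lists around the pump the unadjusted count was 3, and 5 without a filter, 1 with the replicate block, and between 2 and 6 with a library left out. Over all genes the adjusted count was 0, and 43 without a filter, 2 with at least 10 counts in every library, 6 with the replicate block, 37 with DESeq2 and between 0 and 77 with a library left out. The unadjusted count ranged from 111 to 302 and its lower part from 58 to 243 with a library left out. The sources give libraries with the same number nothing else in common, and their deviations correlated at -0.123 across genes. With the replicate numbers crossed, added after seeing the data, 2 genes passed adjustment and no V-ATPase gene did. The replicate block changed no call of a V-ATPase gene (ATP6V1C1 adjusted p = 0.544), while the unadjusted p-values of CLCN5 and HEXA were then 0.139 and 0.309 (edgeR). The lysosomal median, 0.06, was -0.016 with the replicate block. At this depth ATP6V1A and ATP6V1C1 had at most 94 counts in a library, and ATP6V1G2, at 0 counts, could not be tested.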
